A study of Homo sapiens with 9 samples.

Results

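The genes described here stood lower in both knockdowns than in Control: 73 of the 25886 gene symbols counted in HT29 cells. They were chosen by their measured values, not by function. Counts were scaled to CPM, the count of a gene divided by the total of its library and multiplied by 1e6, and a gene entered when its Control mean was at least 2 CPM, each knockdown mean was at most 0.75 times the Control mean, and each of the 6 knockdown libraries lay below each of the 3 Control libraries. Of the 13389 genes at 2 CPM or more in Control, 87 met these conditions (0.65%), and 14 of the 87 were left out by symbol, among them NRP1, CD36, NR5A2, PSAT1, ARHGAP24, KCNN4 and 4 zinc finger genes. Because the choice used both comparisons with Control, the levels relative to Control are given as a description with no test, and the comparison tested for these genes is that of the knockdowns with each other.

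HT29 is a human colorectal cancer cell line. The groups were HT29 cells with stable lentiviral knockdown of DNMT1, HT29 cells with stable lentiviral knockdown of DNMT3B, and HT29 Control cells, with 3 libraries each. The deposited counts label the Control libraries shCTR. All groups, Control included, were selected with puromycin, the knockdown lines at 1 µg/ml for 3 passages. RNA was depleted of ribosomal RNA and sequenced as whole transcriptome, the labels do not give the hairpin sequences, and nothing says that the 3 libraries of a group came from separate cultures, so that p-values measure the spread between libraries, which may be technical.

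DNMT1 copies CpG methylation onto the new DNA strand after replication, and DNMT3B adds methylation to sites that lack it. Promoter methylation is best known as a mark of silenced genes, and loss of a DNA methyltransferase is best known for raising such genes. The genes described here stood lower instead. Both knockdowns were set against the same Control libraries, and whether loss of a methyltransferase lowered these genes was not tested. The products of the 73 genes belong to many systems, from glutathione synthesis and growth factor signalling to the sperm cell, and no single pathway holds most of them. DNA methylation was not analysed here.

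DNMT1 had 249, 250.1 and 258 CPM with DNMT1 knockdown, 492, 484 and 489 CPM with DNMT3B knockdown and 446, 467 and 455 CPM in Control. DNMT3B had 64.2, 64.1 and 64.7 CPM with DNMT1 knockdown, 33.0, 27.6 and 30.9 CPM with DNMT3B knockdown and 60.7, 60.2 and 62.3 CPM in Control. Each targeted gene was thus lowest in its own knockdown, with no overlap with Control, at 55.3% of the Control mean for DNMT1 and 49.97% for DNMT3B (edgeR, adjusted p = 2.83e-20 and 1.49e-17). Library totals were 23421179 to 24168025 counts with DNMT1 knockdown, 18772187 to 25955343 with DNMT3B knockdown and 26923932 to 33666224 in Control, so Control was the most deeply sequenced. The lowest count of any of the 73 genes in any library was 16. Summed markers of colon epithelium lay at 2663 to 2790 CPM, 2678 to 2872 CPM and 2529 to 2639 CPM in DNMT1 knockdown, DNMT3B knockdown and Control libraries, a sum carried by general epithelial genes, with KRT8 alone at 1072, 1168 and 1000 CPM on average with DNMT1 knockdown, with DNMT3B knockdown and in Control. Of the 18 markers 12 were high enough to test. The intestinal regulator CDX2 averaged 40.2 CPM with DNMT1 knockdown, 40.2 CPM with DNMT3B knockdown and 38.1 CPM in Control, whereas CDX1, CEACAM5, CEACAM6, TSPAN8, LGALS4, GPA33, CDH17 and VIL1 averaged under 1 CPM in every group. Summed stromal, leukocyte and endothelial markers lay at 34.2 to 39.6, 26.3 to 28.0 and 2.57 to 2.96 CPM with DNMT1 knockdown, at 42.9 to 47.5, 37.1 to 44.2 and 4.66 to 5.33 CPM with DNMT3B knockdown, and at 31.2 to 35.8, 25.9 to 26.8 and 3.21 to 3.71 CPM in Control. COL1A1 alone averaged 21.6, 27.5 and 17.5 CPM with DNMT1 knockdown, with DNMT3B knockdown and in Control, a large part of the stromal sums. In the same order CD68 alone averaged 18.1, 32.9 and 17.6 CPM, a large part of the leukocyte sums. The stromal genes COL1A2 and DCN had no count in any library, and the part of these marker sums in the results was not tested. In bulk RNA, fewer cells expressing a gene and less RNA per cell cannot be told apart.

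The 73 genes together held 1989, 1974 and 1908 CPM in the DNMT1 knockdown libraries, 1840, 1954 and 1922 CPM in the DNMT3B knockdown libraries and 2853, 2731 and 2867 CPM in the Control libraries. The lower sums in the knockdowns follow from the choice. A few genes carry a large part of them, with NQO1 at 439 and GNAI1 at 363 CPM on average in Control. Most of the differences were moderate. The median gene stood at 69.4% of its Control mean with DNMT1 knockdown (range 45.3% to 74.5%) and at 66.3% with DNMT3B knockdown (range 35.2% to 74.9%). Only CLGN and GLIPR1 were below 50% of Control with DNMT1 knockdown, and only SMAD7, STOX1, SHC2 and WWC3 with DNMT3B knockdown. No gene was below 50% in both, and for 47 of the 73 the larger of the 2 ratios was 0.70 or more. The non-overlap of the libraries is itself common, since 1892 of the 13389 genes at 2 CPM or more in Control (14.1%) had all 6 knockdown libraries below all 3 Control libraries. The mirror image of the rule, with the ratios inverted and the knockdown libraries above Control, found 227 genes after the same exclusions by symbol. Counting was thinner than for most expressed genes: the median Control value of the 73 was 14.5 CPM, beside 34.4 CPM for all genes at 2 CPM or more, and CPM is not corrected for gene length.

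**Figure D1:**
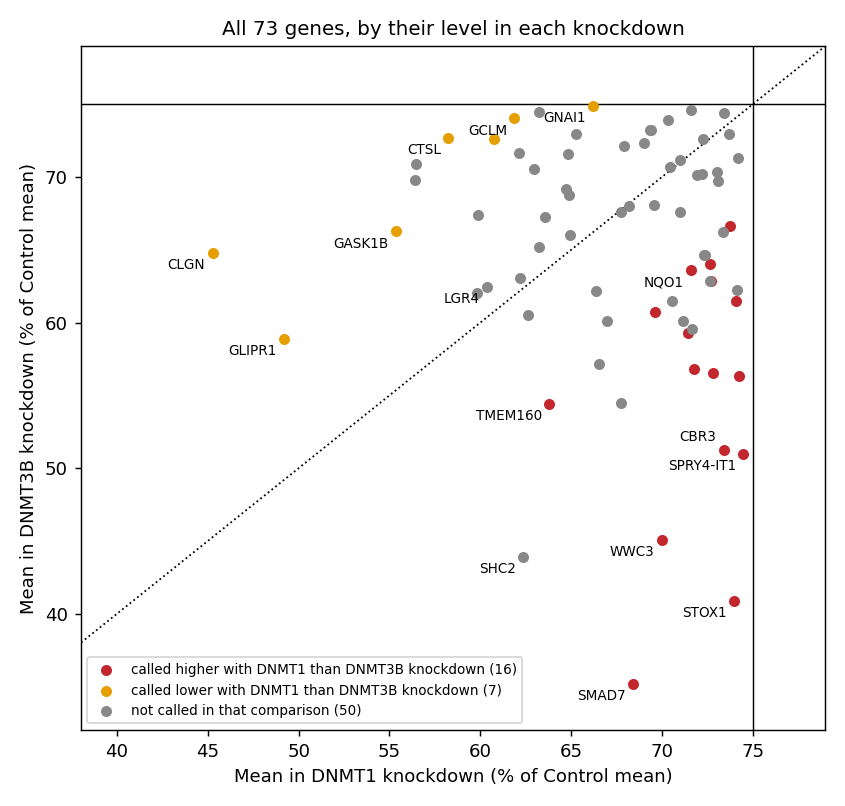
Each point is a gene, placed by its mean CPM as a percentage of its Control mean, with DNMT1 knockdown on the x axis and DNMT3B knockdown on the y axis. Solid lines mark the 75% limit that chose the genes and the dotted line marks equal levels in both knockdowns. Red points are the 16 genes called higher with DNMT1 than with DNMT3B knockdown, orange points the 7 called lower and grey points the 50 not called, and SMAD7, STOX1 and WWC3 lie far below the dotted line.

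At the limits of the choice the values run on without a break. ARHGEF25, a guanine nucleotide exchange factor, had ratios of 0.716 with DNMT1 knockdown and 0.746 with DNMT3B knockdown, and GNAI1 had ratios of 0.662 with DNMT1 knockdown and 0.749 with DNMT3B knockdown. Just outside, LONRF1 had ratios of 0.7501 with DNMT1 knockdown and 0.616 with DNMT3B knockdown, and PDF had ratios of 0.7502 with DNMT1 knockdown and 0.667 with DNMT3B knockdown. At the expression limit CBWD3 and HSPA1A were inside with Control means of 2.01 and 2.22 CPM, and EMC6 and PKD2L2 were outside with 1.94 and 1.88 CPM. HIPK4 and BDKRB2 met both ratios but had overlapping libraries. These neighbours of the limits show that membership near 0.75 or near 2 CPM rests on small differences.

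The 12 genes that stood lowest in both knockdowns, ranked by the larger of their 2 ratios, were GLIPR1, HSPA1A, SHC2, LGR4, TRAF1, KLHL23, TMEM160, CLGN, TEX19, EML5, GASK1B and HES6. GLIPR1 (chromosome 12, 75480755 to 75503863), which encodes a protein of the secreted CAP family, had 16.7, 15.2 and 16.2 CPM with DNMT1 knockdown, 19.4, 19.4 and 18.8 CPM with DNMT3B knockdown and 35.1, 32.98 and 29.8 CPM in Control. It overlaps KRR1 in the annotation, whose level was 111 ± 1.897 CPM with DNMT1 knockdown, 123 ± 2.42 CPM with DNMT3B knockdown and 133 ± 6.25 CPM in Control (SD, n = 3 each). Among the 73, GLIPR1 had the widest relative gap between its highest knockdown library and its lowest Control library. LGR4 (chromosome 11, 27365961 to 27472790), the R-spondin receptor that strengthens WNT signalling in the intestinal crypt, had 21.5, 20.5 and 20.5 CPM with DNMT1 knockdown, 21.9, 21.7 and 21.1 CPM with DNMT3B knockdown and 37.04, 32.8 and 33.8 CPM in Control. The libraries of the 2 knockdowns overlapped, and each was far below Control. TRAF1, an adaptor of TNF receptors, had 3.85, 4.398 and 3.58 CPM with DNMT1 knockdown, 3.83, 3.78 and 3.81 CPM with DNMT3B knockdown and 5.85, 6.87 and 6.16 CPM in Control. It overlaps PHF19 in the annotation, whose level was 56.02 ± 0.350 CPM with DNMT1 knockdown, 58.6 ± 1.203 CPM with DNMT3B knockdown and 70.6 ± 1.405 CPM in Control (SD, n = 3 each). SHC2, an adaptor that links receptor tyrosine kinases to RAS, had 1.24, 1.54 and 1.83 CPM with DNMT1 knockdown, 1.28, 0.852 and 1.12 CPM with DNMT3B knockdown and 2.55, 2.19 and 2.65 CPM in Control. The knockdown libraries of SHC2 overlapped, and the 2 lowest were from DNMT3B knockdown. HSPA1A, the inducible HSP70 chaperone, had 1.53, 1.24 and 1.21 CPM with DNMT1 knockdown, 1.44, 1.33 and 1.35 CPM with DNMT3B knockdown and 2.88, 1.82 and 1.95 CPM in Control. Its near-identical copy HSPA1B was counted at 178 ± 5.67 CPM with DNMT1 knockdown, 184 ± 6.88 CPM with DNMT3B knockdown and 195 ± 8.36 CPM in Control (SD, n = 3 each), so the HSPA1A value depends on how reads shared by the copies were assigned and is uncertain.

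KLHL23, of the kelch family that includes adaptors of cullin ubiquitin ligases, had 2.61, 2.48 and 2.46 CPM with DNMT1 knockdown, 2.47, 2.66 and 2.504 CPM with DNMT3B knockdown and 4.28, 3.79 and 4.05 CPM in Control. TEX19, known from germ cells and placenta, had 2.48, 2.39 and 2.58 CPM with DNMT1 knockdown, 2.801, 2.34 and 2.54 CPM with DNMT3B knockdown and 3.71, 3.42 and 4.66 CPM in Control. EML5, of a family of microtubule-binding proteins, had 7.53, 6.66 and 7.45 CPM with DNMT1 knockdown, 7.87, 7.08 and 7.05 CPM with DNMT3B knockdown and 10.4, 11.4 and 11.6 CPM in Control. In these 3 genes the knockdowns lay on top of each other, and Control lay apart as the choice required. HES6, a basic helix-loop-helix factor of neural differentiation that opposes HES1, had 18.5, 18.6 and 16.5 CPM with DNMT1 knockdown, 15.7, 16.5 and 18.1 CPM with DNMT3B knockdown and 27.1, 22.1 and 31.7 CPM in Control. Control libraries of HES6 were widely spread, and their lowest was above every knockdown library, as the choice required. TMEM160, a mitochondrial membrane protein, CLGN and GASK1B also belong to the 12 and differed between the knockdowns, as described further on.

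**Figure D2:**
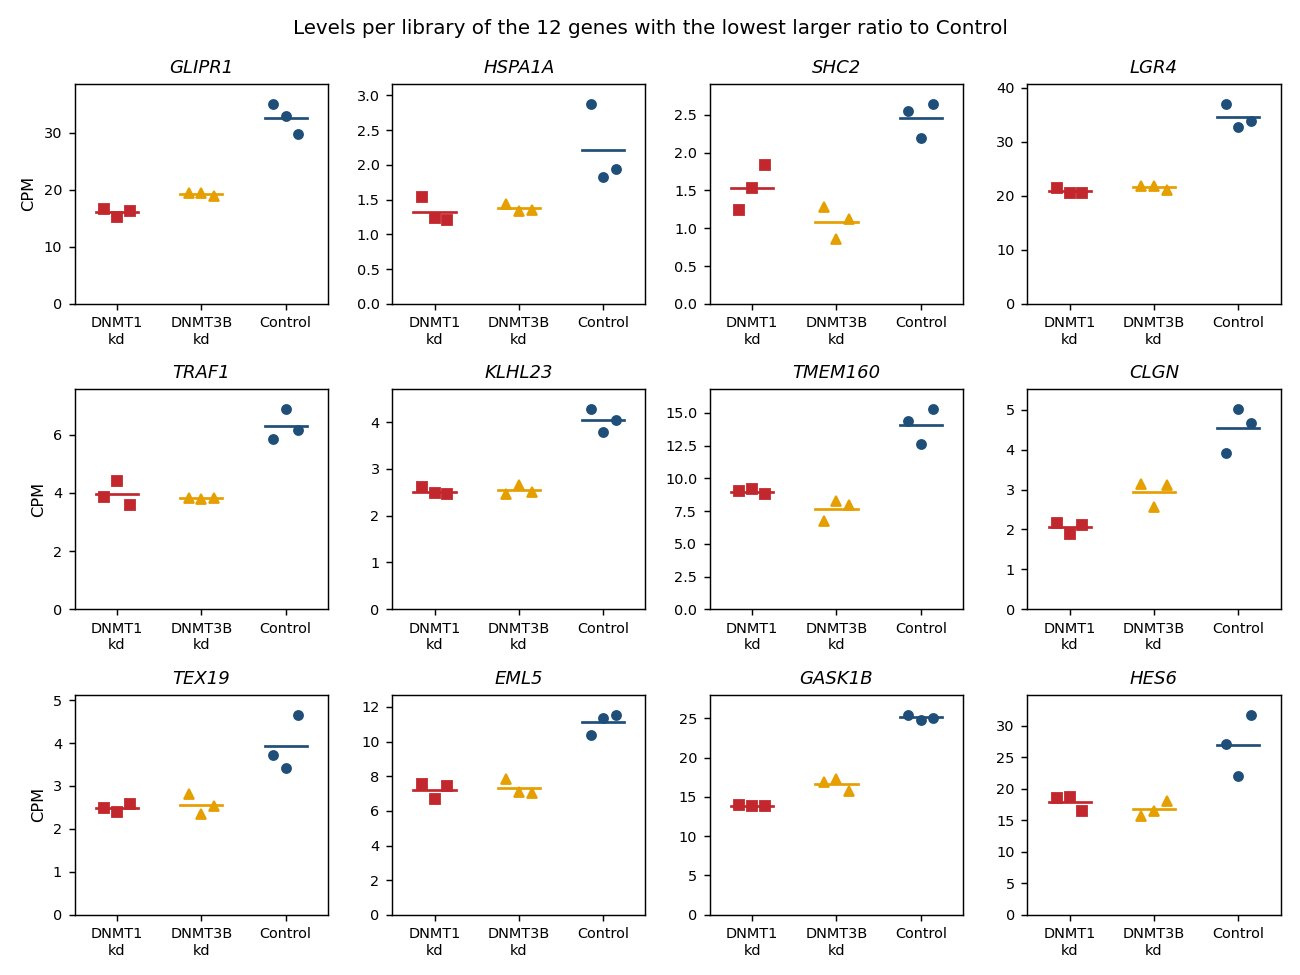
CPM of the 12 genes with the lowest larger ratio to Control, on linear axes that start at 0. Each symbol is a library, with DNMT1 knockdown as red squares, DNMT3B knockdown as orange triangles and Control as blue circles, and the horizontal bars are group means of 3 libraries; in all 12 panels every knockdown library lies below every Control library, which the choice of genes required.

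The promoters of the first 4 of these genes with an entry in the RefSeq promoter table (build GRCh38.p14) are shown as examples of how their start regions differ. Each runs 5′ to 3′ from 250 bases before to 50 bases after the annotated start, and capitals mark matches on either strand to any of the 13 motifs searched, which are listed further on.
HSPA1A (chr6:31815293-31815592, + strand): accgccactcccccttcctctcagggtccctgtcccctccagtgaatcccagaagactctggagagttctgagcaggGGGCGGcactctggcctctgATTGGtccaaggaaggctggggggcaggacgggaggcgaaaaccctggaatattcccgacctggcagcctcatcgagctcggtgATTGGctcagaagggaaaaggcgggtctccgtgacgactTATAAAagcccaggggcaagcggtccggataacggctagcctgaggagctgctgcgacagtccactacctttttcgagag
SHC2 (chr19:460984-461283, - strand): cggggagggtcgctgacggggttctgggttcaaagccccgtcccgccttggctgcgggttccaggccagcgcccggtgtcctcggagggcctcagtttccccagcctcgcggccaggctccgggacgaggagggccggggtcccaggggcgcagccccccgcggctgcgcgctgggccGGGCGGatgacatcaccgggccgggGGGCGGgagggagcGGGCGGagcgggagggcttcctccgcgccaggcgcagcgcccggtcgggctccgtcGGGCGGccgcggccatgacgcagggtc
LGR4 (chr11:27472741-27473040, - strand): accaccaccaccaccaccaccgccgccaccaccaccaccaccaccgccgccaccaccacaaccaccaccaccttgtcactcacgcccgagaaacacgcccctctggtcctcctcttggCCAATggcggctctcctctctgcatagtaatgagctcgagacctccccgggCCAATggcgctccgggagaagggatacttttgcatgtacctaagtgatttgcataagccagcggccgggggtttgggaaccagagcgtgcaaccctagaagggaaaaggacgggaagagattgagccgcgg
TRAF1 (chr9:120929122-120929421, - strand): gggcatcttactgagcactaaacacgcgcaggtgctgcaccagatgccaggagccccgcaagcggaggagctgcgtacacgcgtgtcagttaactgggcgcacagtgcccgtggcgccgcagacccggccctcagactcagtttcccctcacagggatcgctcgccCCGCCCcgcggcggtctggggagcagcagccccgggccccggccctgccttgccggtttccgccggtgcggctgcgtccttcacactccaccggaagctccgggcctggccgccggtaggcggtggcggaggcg
HSPA1A holds a TATAAA box 30 to 25 bases before its start and ATTGG, the reverse complement of CCAAT, at 2 places, beside 1 GGGCGG. SHC2 holds GGGCGG, the core letters of an SP1 site, 4 times and no other motif. LGR4 holds CCAAT at 2 places, and TRAF1 holds the reverse complement of GGGCGG once. CpG observed over expected, the count of CG pairs relative to what the C and G content gives, was 0.550 for HSPA1A, 0.852 for SHC2, 0.666 for LGR4 and 0.840 for TRAF1. A match is a description of letters and not evidence of a factor at the site.

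The knockdowns were then compared with each other by edgeR's quasi-likelihood test over 16660 genes, in which all 73 genes were tested. At an adjusted p under 0.05, 16 of the 73 were higher with DNMT1 than with DNMT3B knockdown (21.9%), against a background of 24.3% of all genes tested, and 7 were lower (9.59%), against 20.9%. The count of higher genes was thus near the background and that of lower genes was below it. The 2 shares are not from like sets, however. The choice held both knockdowns to at most 0.75 times Control, a condition that the genes of the background did not have to meet. The chosen genes were also counted at lower CPM than most expressed genes, so no conclusion is drawn from the lower share. The other 50 genes were not called, which does not show that the knockdowns acted alike. Of the 37 genes with the higher Control CPM, 12 were called higher and 6 lower, and of the other 36, where the median standard error of the log2 fold change was 0.142 instead of 0.061, 4 were called higher and 1 lower. The absolute log2 fold change had a median of 0.15 among the 73 genes and 0.17 among all genes tested. The DNMT1 knockdown libraries lay entirely above the DNMT3B knockdown libraries for 20 genes, entirely below for 10, and overlapped for 43. No share over all genes tested was computed for these counts, so nothing is read from them. SMAD7, STOX1 and WWC3, 3 of the 73, were called with a difference of 1.5-fold or more, beside 1107 of the 16660 genes tested.

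**Figure D3:**
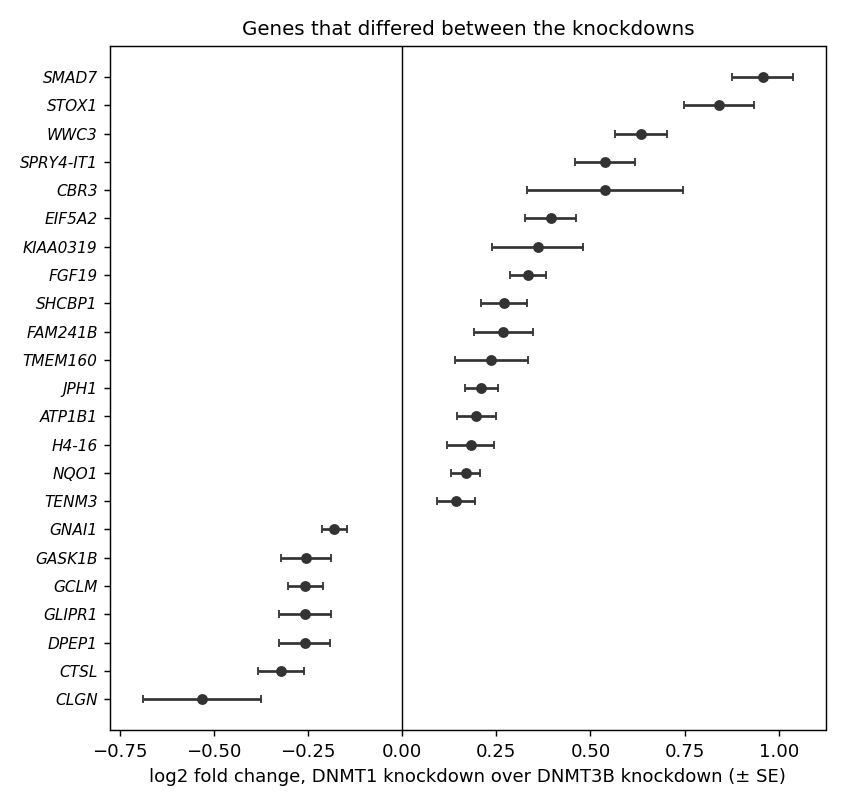
log2 fold change of DNMT1 knockdown over DNMT3B knockdown for the 23 genes called at an adjusted p under 0.05 (edgeR), with bars of 1 standard error. Genes to the right of 0 were higher with DNMT1 knockdown, up to 0.96 for SMAD7, and genes to the left were lower, down to -0.53 for CLGN.

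Receptors, ligands and signal transducers formed the largest role group, with 14 genes, of which 3 were called higher and 2 lower with DNMT1 than with DNMT3B knockdown. Over all genes tested 24.3% were called higher and 20.9% lower, and these shares stand beside the calls of each role group below. SMAD7 (chromosome 18, 48919853 to 48950965), the inhibitory SMAD that blocks TGF-beta receptors and is itself induced by TGF-beta, had 13.1, 12.7 and 13.4 CPM with DNMT1 knockdown, 6.303, 6.82 and 7.05 CPM with DNMT3B knockdown and 19.5, 18.6 and 19.3 CPM in Control. The 3 groups did not overlap, and SMAD7 stood at 68.4% of the Control mean with DNMT1 knockdown and 35.2% with DNMT3B knockdown. The DNMT1 knockdown level was 1.94 times the DNMT3B knockdown level (log2 fold change 0.96 ± 0.0804 (SE), adjusted p = 1.74e-11). WWC3 (chromosome X, 10015254 to 10144474), of the KIBRA family that acts in Hippo signalling, had 16.6, 18.1 and 16.9 CPM with DNMT1 knockdown, 10.96, 11.2 and 11.1 CPM with DNMT3B knockdown and 24.8, 25.4 and 23.5 CPM in Control. Again the 3 groups were apart, and WWC3 was higher with DNMT1 knockdown (log2 fold change 0.63 ± 0.069 (SE), adjusted p = 5.12e-09). FGF19, the intestinal hormone that signals through FGFR4 and represses bile acid synthesis in the liver, had 38.9, 39.7 and 39.3 CPM with DNMT1 knockdown, 32.3, 29.8 and 31.2 CPM with DNMT3B knockdown and 55.5, 55.01 and 53.7 CPM in Control. FGF19 too was lowest with DNMT3B knockdown and higher with DNMT1 knockdown (log2 fold change 0.33 ± 0.047 (SE), adjusted p = 6.67e-07).

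GNAI1, an alpha subunit of the inhibitory G proteins that lower cyclic AMP, had 247, 239.5 and 234 CPM with DNMT1 knockdown, 264, 275 and 276 CPM with DNMT3B knockdown and 367, 360.1 and 361 CPM in Control. With GNAI1 the order was the other way, with the DNMT1 knockdown libraries lowest (log2 fold change -0.18 ± 0.034 (SE), adjusted p = 5.09e-05). GASK1B, a Golgi-associated relative of secreted kinases, had 14.03, 13.8 and 13.8 CPM with DNMT1 knockdown, 16.9, 17.3 and 15.7 CPM with DNMT3B knockdown and 25.5, 24.8 and 25.1 CPM in Control. It was likewise lower with DNMT1 than with DNMT3B knockdown (log2 fold change -0.26 ± 0.066 (SE), adjusted p = 0.00182). GASK1B-AS1 overlaps GASK1B in the annotation, and reads could be shared where strand is not stated. Against Control, GASK1B-AS1 had log2 fold changes of -0.82 with DNMT1 knockdown and 0.03 with DNMT3B knockdown (edgeR, adjusted p = 8.71e-05 and 0.893). Other regulators of cyclic AMP and G protein signalling in the group were not called: the zinc-sensing receptor GPR39 stood at 63.3% and 74.5% of Control with DNMT1 and DNMT3B knockdown, the melatonin receptor MTNR1A at 63.5% and 67.2%, and the cyclic AMP phosphodiesterase PDE4D at 62.1% and 71.6%. RAB23, a small GTPase that restrains hedgehog signalling, stood at 72.4% and 64.7% of Control with DNMT1 and DNMT3B knockdown, the AMP-activated kinase subunit PRKAA2 at 72.3% and 72.6% and ARHGEF25 at 71.6% and 74.6%, also uncalled. Over the 14 genes the medians were 64.9% of Control with DNMT1 knockdown and 65.5% with DNMT3B knockdown.

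SMAD7 was the only one of the 73 in a list of 32 TGF-beta and BMP feedback and target genes. Without it, 10 of the 24 tested genes of that list rose and 5 fell with DNMT1 knockdown, against backgrounds of 21% and 20.8% of all genes tested, and 5 rose and 14 fell with DNMT3B knockdown, against backgrounds of 23.1% and 24.6%. The median log2 fold changes of these 24 genes were 0.10 with DNMT1 knockdown and -0.21 with DNMT3B knockdown, beside 0.00 in each comparison for all genes tested. SMAD6, the other inhibitory SMAD, had 21.4, 22.9 and 21.98 CPM with DNMT1 knockdown, 7.46, 7.24 and 6.93 CPM with DNMT3B knockdown and 11.7, 12.8 and 12.6 CPM in Control. It rose with DNMT1 knockdown, with a log2 fold change of 0.83 (adjusted p = 1.67e-12), and fell with DNMT3B knockdown, with -0.79 (adjusted p = 7.23e-10), while SMAD7 stood below Control in both. LGR4 has no list of its own among those used. Of 19 tested WNT target and crypt stem genes, none of which is among the 73, 8 rose and 4 fell with DNMT1 knockdown and 3 rose and 6 fell with DNMT3B knockdown, beside the same backgrounds, with median log2 fold changes of 0.10 with DNMT1 knockdown and -0.02 with DNMT3B knockdown. The related receptor LGR5 was counted at 0.112 ± 0.0476 CPM with DNMT1 knockdown, 0.479 ± 0.01603 CPM with DNMT3B knockdown and 0.423 ± 0.0766 CPM in Control (SD, n = 3 each), too low to set beside LGR4. GPR39 was the only one of the 73 in the family of genes named GPR, ADGR or RGS, whose other 88 tested members held 25 that rose and 10 that fell with DNMT1 knockdown, and 21 that rose and 17 that fell with DNMT3B knockdown, beside the same backgrounds. The comparisons with Control share the Control libraries, so that their counts are not independent of each other.

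A second group of 8 genes acts in antioxidant defence, glutathione or iron handling. GCLC and GCLM encode the catalytic and modifier subunits of glutamate-cysteine ligase, which makes the first step of glutathione synthesis, and both were among the 73. GCLC (chromosome 6, 53497341 to 53545101) had 85.5, 80.4 and 81.6 CPM with DNMT1 knockdown, 81.6, 86.03 and 92.4 CPM with DNMT3B knockdown and 118, 115 and 119 CPM in Control. GCLM (chromosome 1, 93885199 to 93909430) had 40.5, 38.7 and 38.6 CPM with DNMT1 knockdown, 45.4, 48.7 and 46.97 CPM with DNMT3B knockdown and 64.3, 63.3 and 62.96 CPM in Control. The knockdown libraries of GCLC overlapped, whereas those of GCLM were apart and lower with DNMT1 knockdown (log2 fold change -0.26 ± 0.046 (SE), adjusted p = 2.41e-05). NQO1 (chromosome 16, 69709401 to 69726560), a quinone reductase widely used as a readout of the transcription factor NRF2, had 332, 308 and 303 CPM with DNMT1 knockdown, 271, 290.1 and 277 CPM with DNMT3B knockdown and 446, 424 and 446 CPM in Control. NQO1 went the other way from GCLM, being higher with DNMT1 than with DNMT3B knockdown (log2 fold change 0.17 ± 0.038 (SE), adjusted p = 0.000493). FTH1, the ferritin heavy chain that stores iron, had 234, 242 and 228 CPM with DNMT1 knockdown, 202, 241 and 229 CPM with DNMT3B knockdown and 320.2, 311 and 333 CPM in Control. Ferritin pseudogenes share much of its sequence, so the FTH1 count is uncertain. The knockdown libraries of FTH1 overlapped.

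AIFM2, also called FSP1, reduces coenzyme Q at membranes and protects against ferroptosis. It had 38.4, 39.5 and 38.7 CPM with DNMT1 knockdown, 37.98, 44.4 and 40.8 CPM with DNMT3B knockdown and 56.9, 52.2 and 59.2 CPM in Control. PIR, an iron-binding nuclear protein, had 4.303, 4.398 and 4.25 CPM with DNMT1 knockdown, 3.79, 3.68 and 3.81 CPM with DNMT3B knockdown and 5.32, 6.39 and 6.64 CPM in Control. The knockdown libraries of AIFM2 overlapped and those of PIR did not, and neither gene was called between the knockdowns. CBR3, a carbonyl reductase, had 1.99, 1.84 and 1.87 CPM with DNMT1 knockdown, 0.783, 1.65 and 1.54 CPM with DNMT3B knockdown and 2.79, 2.41 and 2.55 CPM in Control. It was called higher with DNMT1 knockdown (log2 fold change 0.54 ± 0.21 (SE), adjusted p = 0.0341), but the first DNMT3B knockdown library was far below the other 2, and without it the log2 fold change was 0.25 and the adjusted p 0.346. Leaving out any DNMT1 knockdown library also lost the CBR3 call, with adjusted p from 0.0578 to 0.0859. DPEP1, a membrane dipeptidase of glutathione breakdown, had 13.7, 14.2 and 12.8 CPM with DNMT1 knockdown, 16.3, 16.1 and 16.4 CPM with DNMT3B knockdown and 21.6, 22.02 and 23.5 CPM in Control. DPEP1 was lower with DNMT1 knockdown (log2 fold change -0.26 ± 0.068 (SE), adjusted p = 0.00218). Over the 8 genes the medians were 70.5% and 71.2% of Control with DNMT1 and DNMT3B knockdown.

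NQO1, FTH1, GCLC and GCLM were the 4 of the 73 in a list of 27 NRF2-linked antioxidant genes, 25 of which were tested. Of the other 21 tested, 13 fell and 3 rose with DNMT1 knockdown, and 10 fell and 1 rose with DNMT3B knockdown, beside the backgrounds of 20.8% and 21% and of 24.6% and 23.1% given above. Their median log2 fold changes were -0.13 with DNMT1 knockdown and -0.08 with DNMT3B knockdown. SRXN1, which restores overoxidised peroxiredoxins, came nearest to the limits and had 90.5, 91.5 and 92.9 CPM with DNMT1 knockdown, 110.2, 111 and 113 CPM with DNMT3B knockdown and 146, 135 and 144 CPM in Control. It fell in both, with log2 fold changes of -0.64 (adjusted p = 1.59e-15) for DNMT1 knockdown and -0.35 (adjusted p = 9.82e-10) for DNMT3B knockdown. HMOX1, the haem-degrading oxygenase, had 28.6, 32.4 and 31.1 CPM with DNMT1 knockdown, 51.0, 49.4 and 50.2 CPM with DNMT3B knockdown and 48.3, 47.3 and 47.4 CPM in Control. The test called HMOX1 lower with DNMT1 knockdown, at -0.64 (adjusted p = 8.65e-13), and did not call it with DNMT3B knockdown, at 0.07 (adjusted p = 0.214). TXNRD1, thioredoxin reductase, fell in both, with log2 fold changes of -0.74 (adjusted p = 1.97e-15) for DNMT1 knockdown and -0.13 (adjusted p = 0.0141) for DNMT3B knockdown. NFE2L2, which encodes NRF2, was at 155 ± 3.95 CPM with DNMT1 knockdown, 144 ± 6.48 CPM with DNMT3B knockdown and 169 ± 2.75 CPM in Control (SD, n = 3 each), and its inhibitor KEAP1 at 139 ± 5.43 CPM with DNMT1 knockdown, 143 ± 3.24 CPM with DNMT3B knockdown and 167 ± 4.18 CPM in Control (SD, n = 3 each). Both transcripts fell in both knockdowns, NFE2L2 with log2 fold changes of -0.13 (adjusted p = 0.00263) for DNMT1 knockdown and -0.24 (adjusted p = 1.21e-06) for DNMT3B knockdown, and KEAP1 with -0.28 (adjusted p = 2.23e-07) for DNMT1 knockdown and -0.23 (adjusted p = 3.37e-06) for DNMT3B knockdown. A fall beyond the background was not particular to the antioxidant list, since lists that hold none of the 73 also showed it. Of 52 tested S phase genes, 31 fell and 1 rose with DNMT1 knockdown, and 41 fell and 3 rose with DNMT3B knockdown. Of 33 tested cholesterol and fatty acid genes, 18 fell and 0 rose with DNMT1 knockdown, and 23 fell and 2 rose with DNMT3B knockdown.

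**Figure D4:**
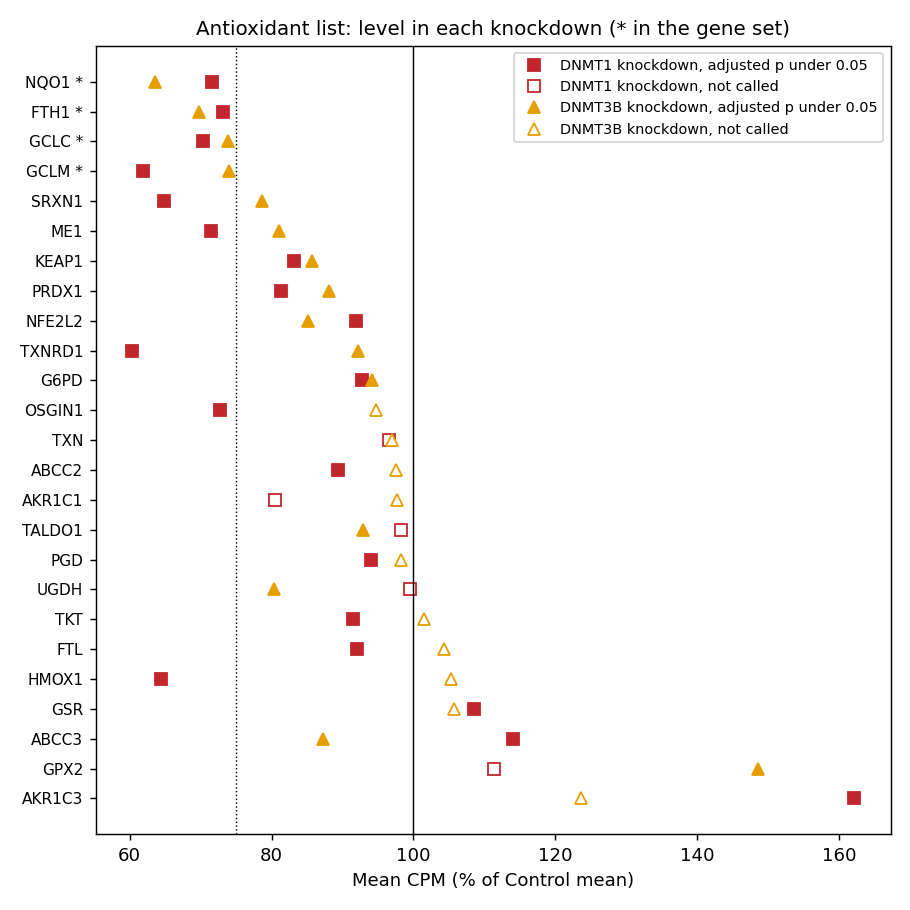
Mean CPM as a percentage of the Control mean for the 25 tested genes of the antioxidant list, with DNMT1 knockdown as red squares and DNMT3B knockdown as orange triangles; filled symbols had an adjusted p under 0.05 against Control (edgeR) and the dotted line marks 75%. The 4 starred genes, NQO1, FTH1, GCLC and GCLM, lie left of the dotted line in both because they were chosen so, while SRXN1, ME1, TXNRD1, OSGIN1 and HMOX1 lie left of it with DNMT1 knockdown alone.

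Promoters of GCLM, AIFM2 and PIR are shown because each holds a match to TGACNNNGC, the core letters of the antioxidant response element bound by NRF2 with small MAF proteins. This motif was added after the genes were known. Capitals again mark matches to any of the 13 motifs.
GCLM (chr1:93909381-93909680, - strand): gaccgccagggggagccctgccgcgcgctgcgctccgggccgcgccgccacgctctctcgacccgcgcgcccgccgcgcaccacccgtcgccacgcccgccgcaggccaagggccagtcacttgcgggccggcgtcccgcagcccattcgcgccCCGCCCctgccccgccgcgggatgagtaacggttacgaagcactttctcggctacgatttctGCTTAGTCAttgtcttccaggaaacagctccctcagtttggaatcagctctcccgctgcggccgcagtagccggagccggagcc
AIFM2 (chr10:70132776-70133075, - strand): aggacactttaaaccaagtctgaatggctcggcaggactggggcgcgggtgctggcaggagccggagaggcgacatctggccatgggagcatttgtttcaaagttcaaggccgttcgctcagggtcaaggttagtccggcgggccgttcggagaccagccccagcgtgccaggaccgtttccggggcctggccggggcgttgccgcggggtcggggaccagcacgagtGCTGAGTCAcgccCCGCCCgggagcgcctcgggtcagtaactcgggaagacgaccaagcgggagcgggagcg
PIR (chrX:15493284-15493583, - strand): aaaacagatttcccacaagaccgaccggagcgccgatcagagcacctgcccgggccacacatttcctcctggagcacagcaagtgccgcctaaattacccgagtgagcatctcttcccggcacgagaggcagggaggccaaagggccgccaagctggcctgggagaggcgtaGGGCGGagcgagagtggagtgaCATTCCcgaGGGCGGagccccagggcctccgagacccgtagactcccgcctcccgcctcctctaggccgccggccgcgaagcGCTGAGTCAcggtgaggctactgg
In GCLM the letters GCTTAGTCA, a match on the other strand, lie 34 to 26 bases before the start. AIFM2 and PIR share the letters GCTGAGTCA, in AIFM2 22 to 14 bases before the start and in PIR 27 to 35 bases after it, and there they overlap a match to TGANTCA, the AP-1 motif. The motif is no feature of the 73 genes as a set, since 8 of their 55 promoters held it (14.5%), beside 14.8% of the promoters of 12867 tested genes and 15.1% of those of genes at 2 CPM or more in Control. The promoter windows of NQO1, GCLC and DPEP1 hold no such match, so that 3 of the 6 antioxidant, iron and glutathione genes with a promoter in the table do. That says only that these letters are not in the other windows.

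Transcription factors and nuclear proteins numbered 9. STOX1 (chromosome 10, 68827531 to 68895432), a winged-helix factor known from the placenta, had 11.4, 10.2 and 10.5 CPM with DNMT1 knockdown, 6.55, 5.17 and 6.01 CPM with DNMT3B knockdown and 14.7, 13.6 and 15.1 CPM in Control. It stood at 73.97% of the Control mean with DNMT1 knockdown and 40.9% with DNMT3B knockdown, and the difference between the knockdowns was 1.79-fold (log2 fold change 0.84 ± 0.093 (SE), adjusted p = 5.89e-09). After SMAD7 this was the largest difference between the knockdowns among the 73, with no overlap of the 3 groups. H4-16, a histone H4 gene whose product is encoded by many near-identical copies, stood at 72.6% and 64.1% of Control with DNMT1 and DNMT3B knockdown and was called higher with DNMT1 knockdown (log2 fold change 0.18 ± 0.063, adjusted p = 0.0188), a call lost when the first DNMT1 knockdown library was left out (adjusted p = 0.161). The H4-16 call was also lost without the second DNMT1 knockdown library (adjusted p = 0.061), without the first DNMT3B knockdown library (0.07) and with DESeq2 (0.0515). The other 7 were not called between the knockdowns. Among them KLF15, a regulator of glucose and amino acid metabolism, stood at 56.4% and 69.8% of Control with DNMT1 and DNMT3B knockdown, MESP1, a factor of cardiac mesoderm, at 59.9% and 67.4%, and GBX2, a homeobox factor of the midbrain-hindbrain boundary, at 74.2% and 71.3%. With DNMT1 and DNMT3B knockdown, ZFP30, a KRAB zinc finger protein, stood at 64.9% and 68.8%, FAM50B, an imprinted gene, at 56.5% and 70.9%, and POLE4, a small subunit of DNA polymerase epsilon, at 65.3% and 72.96%. HES6 is the other gene of this group.

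Of 8 genes of transport and metabolism, the 1 called was ATP1B1, a beta subunit of the sodium and potassium pump, with 33.9, 33.3 and 34.2 CPM with DNMT1 knockdown, 27.6, 29.9 and 30.9 CPM with DNMT3B knockdown and 49.3, 47.9 and 48.5 CPM in Control. It was higher with DNMT1 knockdown (log2 fold change 0.20 ± 0.051 (SE), adjusted p = 0.00213). SLC16A3, the lactate exporter MCT4, had 171, 185 and 164 CPM with DNMT1 knockdown, 158, 179 and 169 CPM with DNMT3B knockdown and 244, 218 and 258 CPM in Control. PCK2, the mitochondrial phosphoenolpyruvate carboxykinase, had 27.1, 28.2 and 28.8 CPM with DNMT1 knockdown, 28.2, 28.9 and 26.8 CPM with DNMT3B knockdown and 42.3, 37.3 and 43.7 CPM in Control. Both genes had overlapping knockdown libraries, and PCK2 was almost level between the knockdowns, at 68.2% of Control with DNMT1 knockdown and 68.03% with DNMT3B knockdown. PCK2 is a target of ATF4, and of the other 25 tested genes in a list of ATF4 and amino acid stress genes, 15 fell and 1 rose with DNMT1 knockdown, and 11 fell and 8 rose with DNMT3B knockdown. Over all genes tested, 20.8% fell and 21% rose with DNMT1 knockdown, and 24.6% fell and 23.1% rose with DNMT3B knockdown. The median log2 fold changes of the 25 were -0.21 for DNMT1 knockdown and -0.07 for DNMT3B knockdown. Of the other 304 tested solute carriers, 78 (25.7%) fell and 63 (20.7%) rose with DNMT1 knockdown and 96 (31.6%) fell and 61 (20.1%) rose with DNMT3B knockdown, beside the same backgrounds, with medians of 0.00 for DNMT1 knockdown and -0.05 for DNMT3B knockdown. The remaining 5 were the chondroitin synthase CHSY3 (67.7% and 54.5% of Control with DNMT1 and DNMT3B knockdown), the dopachrome tautomerase DDT (62.97% and 70.5%), the retinol dehydrogenase RDH14 (66.5% and 57.1%), the glycogen-binding STBD1 (73.04% and 70.4%) and IAH1, named as an esterase (67.7% and 67.6%).

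The cathepsins CTSL and CTSK are cysteine proteases of the lysosome. CTSL had 28.1, 29.1 and 25.1 CPM with DNMT1 knockdown, 32.8, 34.4 and 35.6 CPM with DNMT3B knockdown and 49.4, 43.4 and 48.6 CPM in Control. All DNMT1 knockdown libraries of CTSL were below all DNMT3B knockdown libraries, and the difference passed the test (log2 fold change -0.32 ± 0.0602 (SE), adjusted p = 4.81e-05). CTSK stood at 70.97% and 67.6% of Control with DNMT1 and DNMT3B knockdown, with overlapping knockdown libraries and no call. Among the 3 mitochondrial genes, TIMM13, a chaperone of the intermembrane space, had 50.6, 52.4 and 50.3 CPM with DNMT1 knockdown, 47.5, 52.2 and 52.2 CPM with DNMT3B knockdown and 72.7, 64.9 and 70.7 CPM in Control. TMEM160 had 9.02, 9.18 and 8.78 CPM with DNMT1 knockdown, 6.76, 8.31 and 7.94 CPM with DNMT3B knockdown and 14.4, 12.6 and 15.3 CPM in Control. It was called higher with DNMT1 knockdown (log2 fold change 0.24 ± 0.097 (SE), adjusted p = 0.0454), and the call was lost without the first DNMT3B knockdown library, at a log2 fold change of 0.15 and an adjusted p of 0.267. It was also lost without the third DNMT3B knockdown library (adjusted p = 0.0587) and without any DNMT1 knockdown library (0.0631 to 0.109). DESeq2 (adjusted p = 0.118) and edgeR with DESeq2 size factors (0.0509) did not make the call either. ADCK2, of the family of atypical kinases linked to coenzyme Q, stood at 70.4% and 70.7% of Control with DNMT1 and DNMT3B knockdown, with no call.

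Protein production and turnover had 6 genes. EIF5A2, an isoform of the translation factor eIF5A that carries hypusine, had 22.5, 22.3 and 20.3 CPM with DNMT1 knockdown, 15.5, 16.3 and 17.6 CPM with DNMT3B knockdown and 31.2, 28.8 and 27.8 CPM in Control. The groups did not overlap, and EIF5A2 was higher with DNMT1 knockdown (log2 fold change 0.39 ± 0.067 (SE), adjusted p = 1.24e-05). CPEB2, which binds messenger RNA tails, stood at 71.1% and 60.1% of Control with DNMT1 and DNMT3B knockdown, NIBAN1, a stress-induced regulator of translation, at 69.03% and 72.4% and COPS9, a subunit of the COP9 signalosome, at 73.4% and 66.2%, none of them called. HSPA1A and KLHL23 complete the group.

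Several of the 73 are best known outside the colon. CLGN (chromosome 4, 140388453 to 140427648), calmegin, is a chaperone of the endoplasmic reticulum in developing sperm and had 2.15, 1.88 and 2.12 CPM with DNMT1 knockdown, 3.13, 2.56 and 3.12 CPM with DNMT3B knockdown and 3.92, 5.01 and 4.66 CPM in Control. It showed the reverse pattern of SMAD7, being lowest with DNMT1 knockdown (log2 fold change -0.53 ± 0.16 (SE), adjusted p = 0.0062). Besides TEX19, the germ cell genes ZAR1, an oocyte factor, and ACRV1, a protein of the sperm acrosome, stood at 64.8% and 71.5% and at 74.1% and 62.3% of Control with DNMT1 and DNMT3B knockdown. All 4 germ cell genes were sparsely counted, between 2.63 and 4.53 CPM in Control.

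Genes of neurons, muscle or ion channels numbered 9, of which 3 were called, all higher with DNMT1 knockdown. Beside the 24.3% of all genes tested that were called higher, 3 of 9 is not read as a trait of the group. JPH1, junctophilin 1, which ties the muscle cell membrane to the sarcoplasmic reticulum, had 53.2, 53.3 and 49.9 CPM with DNMT1 knockdown, 44.6, 45.6 and 44.96 CPM with DNMT3B knockdown and 72.6, 72.3 and 70.2 CPM in Control. Its log2 fold change between the knockdowns was 0.21 ± 0.044 (adjusted p = 0.000197). MYH15, a myosin heavy chain, had 48.7, 47.9 and 48.8 CPM with DNMT1 knockdown, 46.8, 51.3 and 47.8 CPM with DNMT3B knockdown and 66.8, 72.02 and 66.02 CPM in Control. The knockdown libraries of MYH15 overlapped. It overlaps CIP2A in the annotation, which was at 51.3 ± 2.48 CPM with DNMT1 knockdown, 54.7 ± 1.68 CPM with DNMT3B knockdown and 53.6 ± 3.54 CPM in Control (SD, n = 3 each). TENM3, a teneurin that guides synaptic partners, stood at 73.7% and 66.6% of Control with DNMT1 and DNMT3B knockdown (0.14 ± 0.049 between them, adjusted p = 0.0188), and KIAA0319, a gene linked to dyslexia, at 72.8% and 56.5% (0.36 ± 0.12, adjusted p = 0.0148). Both of these calls were lost under some alternatives. Uncalled were LRRC26, an auxiliary subunit of BK potassium channels (71.7% and 59.6% of Control with DNMT1 and DNMT3B knockdown), the sodium channel SCN9A (72.6% and 62.9%), the microtubule-linked MAP6D1 (69.4% and 73.2%) and the myelin glycoprotein OMG (73.4% and 74.4%), whose gene lies within NF1. EML5 is the last of these.

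The last 10 genes have no role in common. SPRY4-IT1 (chromosome 5, 142317620 to 142318322), a long noncoding RNA that lies within SPRY4, had 12.7, 13.02 and 12.2 CPM with DNMT1 knockdown, 8.24, 8.31 and 9.36 CPM with DNMT3B knockdown and 15.95, 17.9 and 16.9 CPM in Control. It was higher with DNMT1 knockdown (log2 fold change 0.54 ± 0.081 (SE), adjusted p = 1.67e-06). SPRY4 itself, an ERK pathway inhibitor, was at 302 ± 7.03 CPM with DNMT1 knockdown, 277 ± 8.19 CPM with DNMT3B knockdown and 352 ± 5.42 CPM in Control (SD, n = 3 each), and whether strand was used in counting is not given in the sources used here, so reads of SPRY4 and SPRY4-IT1 cannot be told apart. GLIPR1 was lower with DNMT1 knockdown (log2 fold change -0.26 ± 0.069 (SE), adjusted p = 0.00271). SHCBP1, a partner of SHC adaptors in dividing cells, stood at 71.4% and 59.3% of Control with DNMT1 and DNMT3B knockdown and FAM241B at 74.1% and 61.5%, both called higher with DNMT1 knockdown (0.27 ± 0.061 and 0.27 ± 0.079 on the log2 scale, adjusted p = 0.000517 and 0.00593). The uncalled 6 were MFAP3L (71.95% and 70.2% of Control with DNMT1 and DNMT3B knockdown), TMEM158 (72.3% and 64.7%), which is induced by RAS, C2orf72 (67.9% and 72.1%), TMEM81 (66.98% and 60.1%), RAB5IF (69.5% and 68.1%) and CBWD3 (64.7% and 69.2%), which belongs to a family of near-identical copies and is uncertain.

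In the genome the 73 genes were scattered. RefSeq held 71 of them, on 22 chromosomes, 70 of them protein coding. Chromosome 2 carried 10 (13.7%, against 6.56% of all tested genes) and chromosome 4 carried 8 (10.96%, against 3.53%), and chromosome 13 carried 0. The closest pair, TEX19 and SLC16A3 on chromosome 17, lay 0.119 megabases apart, and AIFM2, FAM241B and STOX1 lay within a stretch of chromosome 10, with gaps of 0.479 megabases between AIFM2 and FAM241B and 0.735 megabases between FAM241B and STOX1. Of 121 other tested genes within 50 kb that did not overlap them, 35 fell and 16 rose with DNMT1 knockdown (28.9% and 13.2%), and 40 fell and 25 rose with DNMT3B knockdown (33.1% and 20.7%). Set beside the backgrounds of 20.8% and 24.6% for genes that fell, the shares of neighbours that fell were somewhat higher. The shares that rose were below the backgrounds of 21% and 23.1%. The median log2 fold changes of the 121 were -0.04 with DNMT1 knockdown and -0.03 with DNMT3B knockdown. HSPA1B, the near-identical copy of HSPA1A, is among the 121, so reads could be shared there too. Of 25 tested genes that overlap the 73, where reads could be shared, 9 fell and 2 rose with DNMT1 knockdown (36% and 8%). With DNMT3B knockdown 9 fell and 0 rose (36% and 0%), beside the same backgrounds. KLHL23, RDH14, STBD1, RAB5IF and PIR share sequence with annotated read-through genes, and DDT with the near-identical DDTL, so their counts are uncertain. Of the 121 neighbours, 22 fell and 9 rose in both knockdowns, counts for which no share over all genes tested was computed. Those that rose in both with log2 fold changes over 0.5 were 3, named after their values were seen. BDNF-AS, an antisense RNA near LGR4 whose reads cannot be told from those of BDNF where strand is not stated, had log2 fold changes of 0.86 (adjusted p = 2.16e-06) with DNMT1 knockdown and 1.4 (adjusted p = 2.11e-11) with DNMT3B knockdown, and SECTM1, near TEX19, had 1.32 (adjusted p = 1.23e-12) with DNMT1 knockdown and 0.59 (adjusted p = 4.11e-05) with DNMT3B knockdown (edgeR). CLCN4, a chloride and proton exchanger near WWC3, had 1.82, 1.92 and 1.87 CPM with DNMT1 knockdown, 1.61, 0.906 and 1.31 CPM with DNMT3B knockdown and 0.0891, 0.260 and 0 CPM in Control. CLCN4 was near the limit of counting in Control and was higher in every knockdown library than in any Control library (edgeR against Control, adjusted p = 1.38e-10 with DNMT1 knockdown and 1.42e-08 with DNMT3B knockdown), whereas WWC3 stood lower in all 6.

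Promoters were matched for 55 of the 73 genes. A promoter was called rich in CpG when at least 50% of its bases were G or C and CpG observed over expected was at least 0.6, and 42 of the 55 were (76.4%), against 73.7% of the promoters of 12867 tested genes and 80.1% of those of the 10622 genes that reached the same 2 CPM in Control. The share of the 55 thus lay between these backgrounds. Median CpG observed over expected was 0.814 in the 55, 0.814 in the tested genes and 0.84 in the genes at 2 CPM or more, and median G plus C content was 69%, 64.7% and 65.3%. The motif GGGCGG, of SP1, was present in 78.2% of the 55 promoters, 66.2% of those of tested genes and 70.3% of those of genes at 2 CPM or more, and TATAAA in 10.9%, 6.59% and 5.69%. In the 55 and in tested genes, CCAAT was present in 40% and 36.1%, TGANTCA, of AP-1, in 9.09% and 5.04%, CACGTG, the E-box, in 9.09% and 9.54%, and GGAATG, of TEAD, in 10.9% and 11.4%. TGACGTCA, the cyclic AMP response element, was present in 1.82% of the 55 and 2.99% of tested genes, and CCGGAAGT, of ETS factors, in 3.64% and 7.77%. None of the 55 held TTTCGCGC, of E2F, GTCTAGAC, of SMADs, TGATGCAA, of ATF4, or the NRF1 motif, which 0.917%, 0.179%, 0.536% and 2.15% of the promoters of tested genes held. Both strands were searched, and matches of different motifs may overlap.

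**Figure D5:**
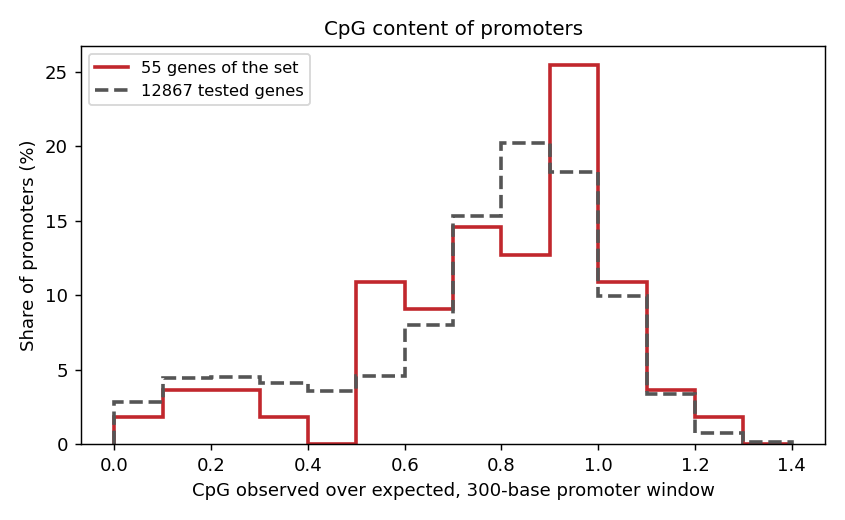
Share of promoters (y axis, percent) by CpG observed over expected in the 300-base window around the annotated start (x axis), for 55 of the 73 genes (solid red) and for 12867 tested genes (dashed grey). Both distributions have their bulk between 0.5 and 1.1, around medians of 0.814 in each.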

How the data were processed

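Per the labels' protocols, rRNA-depleted whole-transcriptome libraries were made from HT29 cells, and per the submitters' processing notes STAR, featureCounts, DESeq2 and the builds GRCh38 and hg38 were used; for versions, annotation and strand setting: not given in the sources used here. The authors deposited 1 table of raw counts per gene symbol for 9 libraries. From these counts CPM was computed with library totals as the divisor, and the rule for choosing genes was applied. The genes, gene lists and tests were chosen with earlier results of these data known. Tests used edgeR 4.0.16 (quasi-likelihood, TMM scaling, filterByExpr, 16660 genes, 3 groups in 1 fit, Benjamini-Hochberg adjustment, threshold 0.05); DESeq2 1.42.0 and limma 3.58.1 were alternatives, run in R 4.3.3. The code was tested on simulated data. Library totals of 18772187 to 33666224 counts give a precision that falls with the count, down to 16 for the sparsest value. Genes named are the 12 with the lowest larger ratio, the 8 with the highest Control CPM, the 6 largest calls per direction between the knockdowns, those in the TGF-beta, ATF4, NRF2, solute carrier and GPR lists, and those next to the thresholds; other genes of the set are named with their role, which was assigned by textbook knowledge after the genes were known. Promoters came from RefSeq (GRCh38.p14); the TGACNNNGC motif was chosen after seeing the data.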

Additional observations from a re-analysis of the deposited data

How the results depend on the processing

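Which genes were chosen depended most on the ratio limit: a limit of 0.7 in place of 0.75 left 26 genes and a limit of 0.8 gave 178. A Control minimum of 5 CPM left 54 genes and one of 1 CPM gave 91, TMM scaling gave 80 and DESeq2 size factors gave 83, both including all 73, and leaving out 1 library in turn gave 70 to 98, of which 60 to 70 were among the 73. Between the knockdowns, leaving out 1 library gave 12 to 17 genes called higher and 7 to 8 called lower, and DESeq2 called 11 higher and 7 lower in place of 16 and 7. The replicate numbers did not pair the libraries, since deviations of same-numbered libraries correlated between -0.0615 and 0.0425; a fit with a replicate block called 16 higher and 7 lower, and 7379 genes in all in place of 7534. Calls between the knockdowns were lost under at least 1 alternative for TMEM160, H4-16, KIAA0319, CBR3 and TENM3, and no direction of a called gene was reversed in 391 values. The cause was not tested. With all 27305 promoters of the table as background, the share of CpG-rich promoters was 29.44 percentage points above it in place of 2.65; with the genes at 2 CPM or more in Control, a background chosen after seeing the data, the difference was -3.734 and so reversed. Of the list counts printed, antioxidant genes that rose with DNMT1 knockdown numbered 1 in place of 3 without Control replicate 2 or DNMT1 knockdown replicate 2, and those that rose with DNMT3B knockdown 2 in place of 1 without DNMT3B knockdown replicate 1 or with a minimum of 1 CPM in 3 libraries. WNT genes that fell with DNMT1 knockdown numbered 2 in place of 4 with DESeq2 or without DNMT1 knockdown replicate 1, and those that rose with DNMT3B knockdown 5 in place of 3 without DNMT3B knockdown replicate 2. S phase genes that rose with DNMT1 knockdown numbered 2 in place of 1 under several alternatives, limma-voom among them. Cholesterol and fatty acid genes that rose with DNMT1 knockdown numbered 1 to 3 in place of 0 under several alternatives. Of the 36 genes with the lower Control CPM, 5 were called between the knockdowns, with a median standard error of 0.142 in place of 0.061; whether depth sets that number was not tested.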
